A study of Mus musculus with 11 samples.

Results

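The genes for fibronectin, fibulins and a set of matricellular and elastic fibre proteins were followed here in sorted endothelial cells (ECs) of the mouse liver. The set holds 10 of the 29307 genes in the count table, taken by gene symbol, namely *Fn1*, *Sparc*, *Sparcl1*, *Thbs1*, *Mgp*, *Ecm1*, *Efemp1*, *Fbln2*, *Fbln5* and *Emilin1*, and their values were compared between conventionally raised (CONV-R) and germ-free (GF) mice. Male C57BL/6J mice of matched young adult age were used, 6 of them CONV-R under specific pathogen-free conditions and 5 GF, that is, without any gut microbiota. The labels name no further allele or agent, so that colonization was the only labelled difference, and each library came from 1 mouse. The livers were dissociated, cells were enriched with magnetic beads against CD146, and those positive for CD31, CD105 and CD146 were then sorted as sinusoidal ECs. Total RNA was amplified as cDNA before sequencing, and the paper gives a single input amount for this step. GF livers gave fewer sorted cells and less RNA per isolation, a difference in yield that cannot be told apart from the colonization status.

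Fibronectin is a large adhesive glycoprotein that cells assemble into fibrils through integrins. Fibulins and emilins are proteins of elastic fibres and the structures around them. Matricellular proteins, among them thrombospondins and the SPARC family, are secreted into the matrix and modulate adhesion, growth factor access and matrix assembly more than they serve as scaffold. The hepatic sinusoid lacks a continuous basement membrane, and its endothelium faces the loose matrix of the space of Disse, of which fibronectin is a main component.

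The total count per library ranged from 7922855 to 14669352 in CONV-R mice (median 12425848.5, n = 6) and from 7242717 to 16164588 in GF mice (median 10425837, n = 5). The sorted cells carried the endothelial markers, and the summed level of 13 sinusoidal endothelial genes was 35519 to 42847 CPM (counts scaled to a common library size) in CONV-R and 33767 to 48898 CPM in GF libraries. Markers of Kupffer cells, the resident macrophages of the liver, were present at a far lower level and differed between the groups (85.97 to 222 CPM in CONV-R, 197 to 931 CPM in GF), with GF replicate 6 at the top.

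CPM values are normalized with TMM factors and are not corrected for gene length, so they compare libraries for 1 gene. A gene was tested when its counts passed edgeR's default filter for low counts, which 12905 genes did, and it was called different when the Benjamini-Hochberg adjusted p over those genes was under 0.05. Log2 fold changes (Log2FC) give the GF level relative to the CONV-R level. Of the 10 genes, 9 were tested. *Fn1*, *Sparcl1*, *Thbs1*, *Fbln2* and *Fbln5* were called higher in GF mice, where 4.80% of all tested genes were called higher. *Mgp* was called higher too, but it passed the filter only through its GF libraries, which fixes its direction, so it is not read against that share. None was called lower by edgeR's quasi-likelihood test, where 2.67% of all tested genes were, although *Emilin1* had an unadjusted p of 0.00741, and DESeq2 called none lower either. *Sparc* and *Ecm1* were not called, and *Efemp1* was too low to be tested. In bulk RNA of sorted cells, a larger share of the cells that make a transcript and more of it per cell cannot be told apart.

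The upstream sequence of 2 genes is printed to show a called and an uncalled member beside each other. *Fbln5*, one of the genes called higher, lies on the minus strand of chromosome 12, and *Ecm1*, whose level did not pass the test, on the minus strand of chromosome 3. Both runs cover the 250 bases before the start of a RefSeq transcript (for *Fbln5* 1 of 2 starts), in GRCm38.p6, at chr12:101819120-101819369 and chr3:95739570-95739819, and neither overlaps an annotated exon. They are written 5′ to 3′ on the minus strand, and capitals mark matches to the 7 motifs searched.
Fbln5: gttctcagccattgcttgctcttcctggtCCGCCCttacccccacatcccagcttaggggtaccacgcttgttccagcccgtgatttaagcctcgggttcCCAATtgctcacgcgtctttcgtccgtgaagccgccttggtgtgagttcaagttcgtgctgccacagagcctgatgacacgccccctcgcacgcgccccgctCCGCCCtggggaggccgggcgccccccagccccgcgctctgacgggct
Ecm1: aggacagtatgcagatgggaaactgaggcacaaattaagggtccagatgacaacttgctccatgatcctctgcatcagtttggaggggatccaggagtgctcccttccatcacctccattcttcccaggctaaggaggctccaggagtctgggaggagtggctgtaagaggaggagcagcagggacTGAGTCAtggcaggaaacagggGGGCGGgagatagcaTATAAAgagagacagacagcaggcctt
The *Fbln5* window had a GC content of 65.2% and held a CCAAT box 150 bases before the start and GC boxes (GGGCGG on either strand) 221 and 48 bases before it. The *Ecm1* window had a GC content of 54.0% and held an AP-1 site (TGANTCA) 64, a GC box 42 and a TATA box (TATAAA) 27 bases before the start. Among all 32851 promoter windows of the same table and length, 33.8% held a CCAAT box, 32.7% a GC box, 12.4% a TATA box and 6.75% an AP-1 site, on either strand. The letters of the CRE (TGACGTCA), of a TEAD site (GGAATG) and of the glucocorticoid response element were in neither window. The window of the other *Fbln5* start, not printed, held no match to any of the 7 motifs. Neither did the windows of *Sparc* and *Emilin1*, which were not called. The window of *Fbln2*, called higher, held a GC box, and that of *Efemp1*, not tested, an AP-1 site and a GC box. A difference between called and uncalled members was not tested.

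*Fn1* encodes fibronectin itself, the ligand that integrins bind and that fibulins and thrombospondin attach to. The gene spans chr1:71585520-71653200 on the minus strand of GRCm38, with 46 exons in its longest annotated transcript. It was at 13.4, 29.1, 24.9, 34.1 and 62.7 CPM in GF replicates 1, 2, 4, 5 and 6. In CONV-R libraries it ranged from 4.10 to 6.62 CPM with a median of 5.23 CPM. Every GF library lay above every CONV-R library, and CONV-R libraries varied little among themselves. The mean was 32.8 ± 18.3 CPM (SD, n = 5) in GF and 5.19 ± 0.881 CPM (SD, n = 6) in CONV-R mice, and the fitted fold was 6.27 (95% interval 4.07 to 9.66). The Log2FC was 2.65 with an SE of 0.30 and an adjusted p of 3.5e-05 in the quasi-likelihood fit of edgeR, Benjamini-Hochberg adjusted. GF replicate 6, the highest for *Fn1*, was also the library with the most Kupffer cell marker RNA (931 CPM). Without it, the Log2FC of *Fn1* was 2.28 with an adjusted p of 3.8e-05 in the same test. Hepatocytes are a main source of plasma fibronectin, and the summed level of 9 hepatocyte markers was 24.5 to 56.4 CPM in CONV-R and 27.6 to 60.6 CPM in GF libraries, with albumin (*Alb*) at means of 27.96 and 32.7 CPM. The part of hepatocyte RNA in the *Fn1* values was not tested. *Apol7d*, which overlaps *Fn1* on the opposite strand, had 1 count in all libraries together.

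*Sparcl1* (chr5:104079111-104113733, minus strand) encodes hevin, a secreted relative of SPARC. It was at 19.9, 58.0, 25.0, 66.8 and 61.3 CPM in GF replicates 1, 2, 4, 5 and 6. In CONV-R libraries it ranged from 2.82 to 15.8 CPM with a median of 4.49 CPM. The groups did not overlap, and the CONV-R libraries fell into 4 at 2.82 to 4.71 CPM and 2, replicates 5 and 6, at 15.8 and 15.4 CPM. *Sparcl1* was 5.96-fold higher in GF mice (95% interval 3.07 to 11.6), with a Log2FC of 2.57, an SE of 0.45 and an adjusted p of 0.00221 by edgeR's quasi-likelihood test. CONV-R replicates 5 and 6 were also those with the most large-vessel endothelial marker RNA in their group, at 1089 and 1042 CPM against 710 to 861 CPM in the other 4. The sum of 5 mesothelial markers split in the same way, at 17.45 and 13.3 CPM against 5.05 to 8.76 CPM. The part of either in the *Sparcl1* values was not tested. In the GF group the mesothelial sum was highest in replicate 1 (25.7 CPM), where *Sparcl1* was lowest. It was lowest in replicate 5 (9.39 CPM), where *Sparcl1* was highest. The sum of the 8 large-vessel markers was 781 to 1371 CPM in GF libraries, also highest in replicate 1. The large-vessel sums of the groups overlapped (adjusted p = 0.377 over 8 marker lists, exact permutation test, two-sided). *Gja4*, a connexin of arterial ECs, was the 1 marker of the 8 called higher, where 4.80% of all tested genes were, and 0 were called lower. The mean was higher in GF mice for 5 of the 8 and lower for 3, namely *Sox17*, *Rspo3* and *Selp*.

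*Sparc* (chr11:55394500-55423183, minus strand) encodes the collagen-binding protein osteonectin and was by far the most abundant member. It was at 1901, 1599, 2537, 1660 and 2140 CPM in GF replicates 1, 2, 4, 5 and 6 and between 1514 and 2265 CPM (median 1654 CPM) in CONV-R libraries. The ranges overlapped widely. The Log2FC of *Sparc* was 0.13 with an SE of 0.14, and its 95% interval of -0.17 to 0.43 leaves room for a fold between 0.888 and 1.35. The paralogs can be read against each other within a library, where scaling between libraries has no part. For every 1000 counts of *Sparc* there were 1.25 to 10.5 counts of *Sparcl1* (median 2.32) in CONV-R and 9.87 to 40.2 (median 28.7) in GF libraries. On this ratio the groups overlapped through GF replicate 4 (9.87), which lay below CONV-R replicates 5 and 6 (10.45 and 9.93), and the other 4 GF libraries were above every CONV-R library, replicate 1 (10.49) only just. The counts of *Fn1* for every 1000 of *Sparc* were 2.08 to 4.37 in CONV-R and 7.07 to 29.3 in GF libraries, without overlap.

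*Thbs1* (chr2:118111876-118127133, plus strand) encodes thrombospondin 1, a matricellular protein that binds CD36 and CD47, restrains angiogenesis and activates latent TGF-β. It was at 23.5, 21.5, 1.52, 21.3 and 10.7 CPM in GF replicates 1, 2, 4, 5 and 6. The CONV-R libraries ranged from 0.478 to 4.52 CPM with a median of 2.06 CPM. In 4 of 5 GF libraries *Thbs1* was above the highest CONV-R library, whereas GF replicate 4, with 16 counts, fell inside the CONV-R range and below its median. The fold change was 7.38 (95% interval 3.37 to 16.18), an interval that overlapped those of the other 5 genes called higher, with a Log2FC of 2.88, an SE of 0.54 and an adjusted p of 0.00329 by edgeR's quasi-likelihood test. Under limma voom the adjusted p was 0.0520. Platelets store thrombospondin 1, and the summed level of 7 platelet markers was 19.5 to 29.0 CPM in CONV-R and 15.9 to 21.5 CPM in GF libraries, carried by *Gp1ba* (means of 12.5 and 9.14 CPM), *Ppbp* (6.14 and 6.21 CPM) and *Itga2b* (2.86 and 2.33 CPM). *Pf4* was at means of 0.803 CPM in CONV-R and 1.23 CPM in GF libraries, and *Gp9*, *Gp1bb* and *Treml1* were lower still. The part of platelet RNA in the *Thbs1* values was not tested. The antisense gene *Gm29233* had 0 counts in every library.

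*Mgp* (chr6:136872435-136875823, minus strand) encodes matrix Gla protein, a small inhibitor of calcification that also binds BMP ligands. It was at 1.88, 1.74, 1.90, 1.85 and 2.31 CPM in GF replicates 1, 2, 4, 5 and 6, from 14 to 29 counts each. In CONV-R libraries it ranged from 0.0776 to 1.29 CPM (median 0.252 CPM) and from 1 to 16 counts. The groups did not overlap, and the GF libraries lay close together. *Mgp* passed the filter for low counts only through its GF libraries, and a gene that enters the test this way had to be higher there. Its Log2FC was 2.19 with an SE of 0.59 and an adjusted p of 0.0321 by edgeR's quasi-likelihood test. The call was lost in 6 of 11 fits that each left out 1 library, namely CONV-R replicate 2 or 4 or GF replicate 1, 2, 4 or 6, with adjusted p up to 0.0687. Without CONV-R replicate 5, the highest of its group, the Log2FC of *Mgp* was 2.98.

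*Fbln2* (chr6:91212455-91272540, plus strand) encodes fibulin-2, which binds fibronectin, fibrillin and tropoelastin. It was at 144, 115, 43.9, 55.8 and 55.7 CPM in GF replicates 1, 2, 4, 5 and 6. CONV-R values ranged from 14.98 to 45.4 CPM with a median of 23.9 CPM. In 4 of 5 GF libraries it was above the highest CONV-R library, and GF replicate 4 fell just below CONV-R replicate 5. The mean was 82.8 ± 43.9 CPM (SD, n = 5) against 26.3 ± 11.8 CPM (SD, n = 6), with a Log2FC of 1.66, an SE of 0.32 and an adjusted p of 0.00445 by edgeR's quasi-likelihood test. GF replicate 1, the highest for *Fbln2*, also had the highest large-vessel marker sum.

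*Fbln5* (chr12:101746565-101819055, minus strand) encodes fibulin-5, which links tropoelastin to integrins and is needed for elastic fibre assembly. It was at 10.5, 18.2, 8.09, 19.2 and 10.3 CPM in GF replicates 1, 2, 4, 5 and 6. The CONV-R range was from 1.43 to 9.82 CPM with a median of 4.58 CPM. Again GF replicate 4 was the 1 GF library inside the CONV-R range, below CONV-R replicate 3. *Fbln5* was 2.67-fold higher in GF mice (95% interval 1.58 to 4.51), with a Log2FC of 1.41, an SE of 0.36 and an adjusted p of 0.0235 by edgeR's quasi-likelihood test. Without CONV-R replicate 4 the adjusted p was 0.0601, and without GF replicate 2 it was 0.0622. *Efemp1* (chr11:28853204-28926743, plus strand), which encodes fibulin-3, had 38 counts over the 6 CONV-R and 46 over the 5 GF libraries. It was at 0.715, 0.869, 0.286, 0.661 and 2.44 CPM in GF replicates 1, 2, 4, 5 and 6 and from 0 to 1.78 CPM (median 0.157 CPM) in CONV-R libraries. The ranges overlapped. Tested with no filter, it gave a Log2FC of 0.92 (adjusted p = 0.571, edgeR's quasi-likelihood test).

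*Emilin1* (chr5:30913402-30921277, plus strand) encodes an elastic fibre glycoprotein that restrains TGF-β processing, and it was the second most abundant member. It was at 179, 167, 191, 157 and 227 CPM in GF replicates 1, 2, 4, 5 and 6. In CONV-R libraries it ranged from 198 to 305 CPM with a median of 239 CPM. In 4 of 5 GF libraries it was below the lowest CONV-R library, and only GF replicate 6 fell inside the CONV-R range. The Log2FC was -0.39 with an SE of 0.13, a 95% interval of -0.67 to -0.12 and an adjusted p of 0.0748 by edgeR's quasi-likelihood test, so that it was not called. Without GF replicate 6 the Log2FC was -0.48 and the adjusted p 0.0487. Within libraries, *Emilin1* gave 115 to 147 counts for every 1000 of *Sparc* in CONV-R and 75.3 to 106 in GF mice, without overlap. *Ecm1* (chr3:95734147-95739569, minus strand), extracellular matrix protein 1, is a secreted binder of matrix and growth factors. It was at 83.5, 50.1, 62.7, 43.0 and 63.3 CPM in GF replicates 1, 2, 4, 5 and 6 and from 42.1 to 81.5 CPM (median 63.3 CPM) in CONV-R libraries. The ranges were nearly the same, and the Log2FC of -0.04 had a 95% interval of -0.41 to 0.33.

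**Figure D1:**
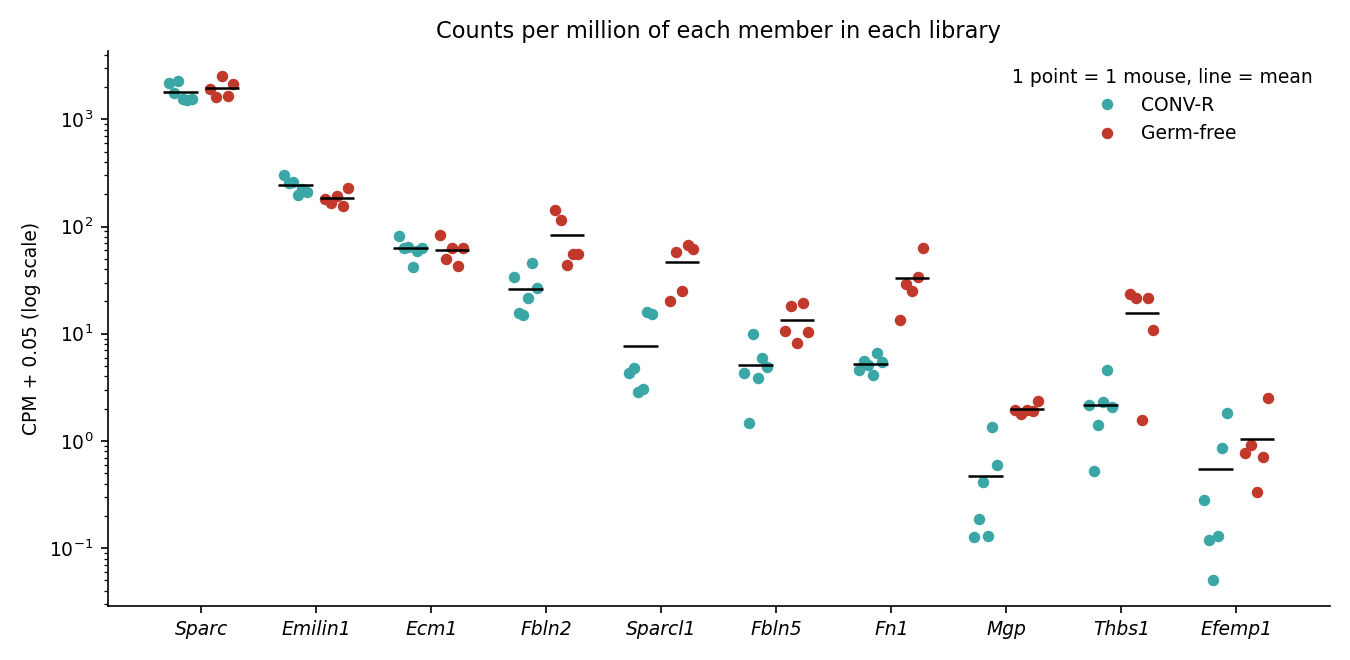
CPM (TMM normalized, 0.05 added, log axis) of the 10 genes, with 1 point per mouse and the group mean as a line. *Fn1*, *Sparcl1* and *Mgp* have every GF point above every CONV-R point, while *Sparc* and *Ecm1* overlap.

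Non-overlapping values with GF above CONV-R were found for *Fn1* and *Sparcl1*, where 3.22% of all tested genes had them. *Mgp* had them too, but entered the test only through its GF libraries. The plot of values by library also shows how the libraries ordered. GF replicate 4 was lowest of its group for *Thbs1*, *Fbln2*, *Fbln5* and *Efemp1* and highest for *Sparc*. GF replicate 6 was highest for *Fn1*, *Mgp*, *Efemp1* and *Emilin1*. CONV-R replicate 5 was highest of its group for *Fn1*, *Sparcl1*, *Thbs1*, *Mgp* and *Fbln2*.

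**Figure D2:**
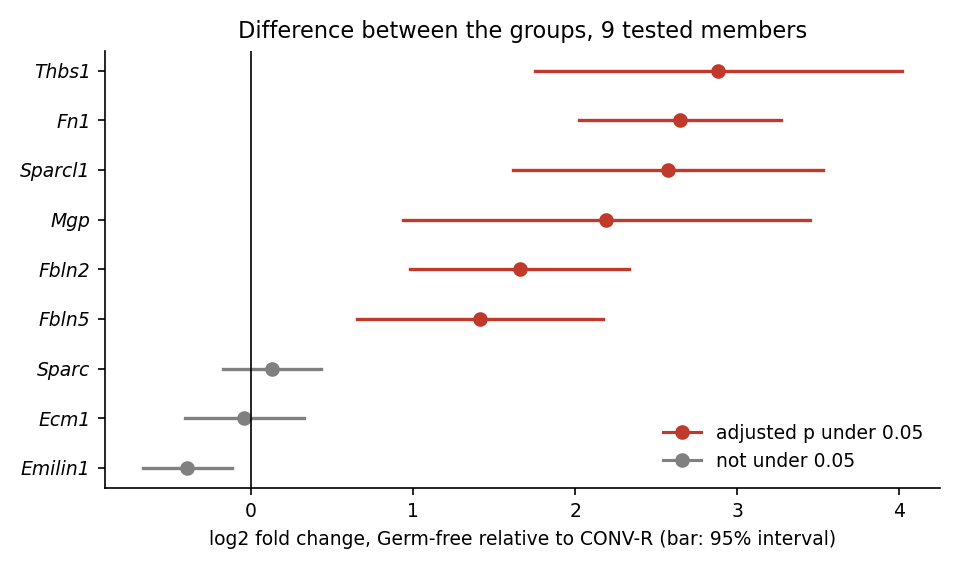
Log2FC of the 9 tested genes with 95% intervals from edgeR's quasi-likelihood fit. The intervals of 6 genes lie above 0 with an adjusted p under 0.05, that of *Emilin1* lies below 0 with an adjusted p of 0.0748, and those of *Sparc* and *Ecm1* cross 0.

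Levels of different genes were compared per kb of annotated exon. In CONV-R mice the mean levels were 474 CPM per kb for *Sparc*, 49.0 for *Emilin1* and 24.8 for *Ecm1*, and each of these stood apart from the next without overlap between libraries. *Fbln2* (4.12 CPM per kb) and *Sparcl1* (2.61) followed, and *Fbln5*, *Fn1*, *Mgp*, *Thbs1* and *Efemp1* were between 0.727 and 0.243 CPM per kb. From *Fbln2* downwards, neighbours in the order overlapped and cannot be ranked beyond the spread of the libraries. In GF mice *Sparc* (519 CPM per kb), *Emilin1* (37.3) and *Ecm1* (24.0) again came first, followed by *Sparcl1* (15.7), *Fbln2* (13.0), *Fn1* (2.81), *Thbs1* (2.59), *Fbln5* (1.92), *Mgp* (1.63) and *Efemp1* (0.488). *Emilin1*, *Ecm1*, *Sparcl1* and *Fbln2* formed an overlapping run in GF mice, and so did *Fn1*, *Thbs1*, *Fbln5* and *Mgp*. *Sparc* alone made up 82.5% to 87.6% of the summed per-kb level of the 10 genes in CONV-R and 80.5% to 88.8% in GF libraries. The 6 called genes together made up 0.835% to 3.25% in CONV-R and 2.73% to 9.15% in GF libraries, which is a description, since they were chosen by their test. With the length of the longest transcript in place of all exons, the order in CONV-R mice was the same for all 10 genes, while *Sparcl1* and *Fbln2* changed places in GF mice and *Mgp* moved above *Thbs1* and *Fbln5*.

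**Figure D3:**
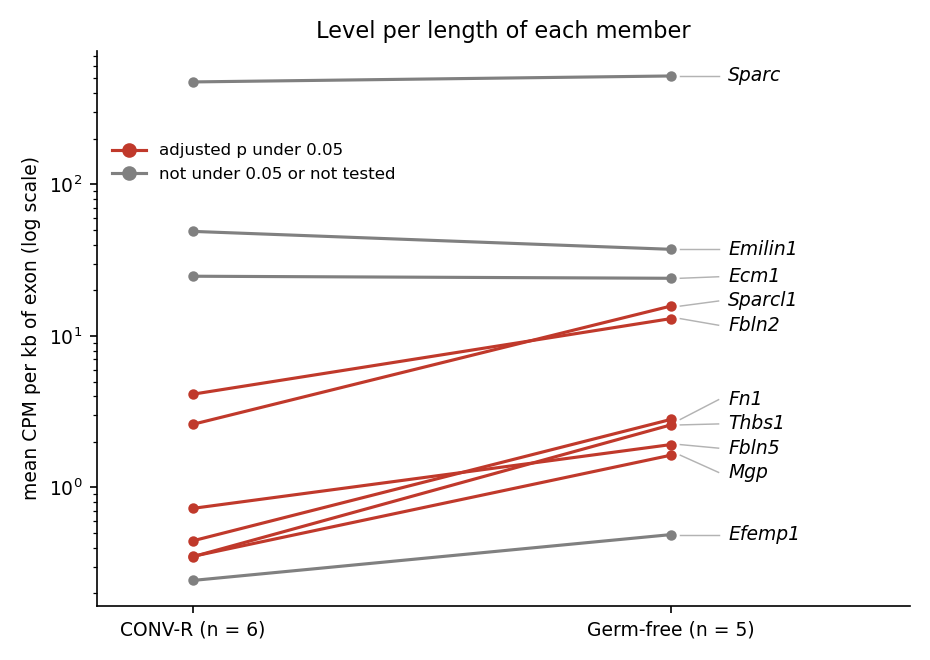
Mean CPM per kb of annotated exon (log axis) of each gene in CONV-R and GF mice, joined by a line per gene. *Sparc*, *Emilin1* and *Ecm1* are first in both groups, and the 6 genes called higher lie below them.

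The other genes of these pathways were read from 5 lists with 62 genes, of which 39 were tested, 6 were called higher and 2 lower, where 4.80% and 2.67% of all tested genes were. Among the 10 tested fibronectin receptor genes, the integrin subunits *Itgb3* and *Itgb5* were called higher and none lower, with a median Log2FC of 0.41 over the list and of -0.01 over all tested genes. *Itgb3*, the β3 chain of the αvβ3 receptor, was at 275, 140, 61.2, 55.1 and 81.7 CPM in GF replicates 1, 2, 4, 5 and 6 and from 19.3 to 60.4 CPM (median 50.9 CPM) in CONV-R libraries. The ranges overlapped through GF replicate 5, the Log2FC of *Itgb3* was 1.37 (0.83 without GF replicate 1, its highest library), and the adjusted p of 0.0252 by edgeR's quasi-likelihood test became 0.0521 under limma voom, 0.0522 on the deposited log2 values, 0.0847 with robust dispersion and 0.0507 with a replicate block. The call was also lost without CONV-R replicate 4 or GF replicate 1 or 2, with adjusted p up to 0.0895. *Itgb5*, the β5 chain, was at 4.86 to 10.04 CPM in GF and 0.982 to 4.19 CPM in CONV-R libraries without overlap (Log2FC 1.38, adjusted p = 0.0269 by edgeR's quasi-likelihood test), and its call was lost without CONV-R replicate 2 or 4 or GF replicate 6, with adjusted p up to 0.0841. GF replicate 6, the highest for *Itgb5*, was also the library with the most Kupffer cell marker RNA (931 CPM). The main fibronectin receptor is made of the chains of *Itga5* (Log2FC 0.14) and *Itgb1* (0.38), and neither was called.

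All 4 genes of the list of thrombospondin and SPARC receptors had a positive Log2FC, with a median of 0.59, and *Cd36* was the 1 called. *Cd36*, a scavenger receptor that binds thrombospondin 1, was at 1580, 1324, 2118, 1245 and 1555 CPM in GF replicates 1, 2, 4, 5 and 6 and from 801 to 943 CPM (median 861 CPM) in CONV-R libraries. The groups did not overlap, and the Log2FC was 0.84 with an SE of 0.12 and an adjusted p of 0.000514 by edgeR's quasi-likelihood test. GF replicate 4, lowest of its group for *Thbs1*, was highest for *Cd36*. *Stab1*, a scavenger receptor that takes up SPARC, had a Log2FC of 0.33 with an adjusted p of 0.115 in the same test.

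Of the 10 tested genes among the other elastic fibre genes, *Fbn1* was called higher and *Loxl3* lower, and the median Log2FC was 0.39. *Fbn1*, the microfibril protein fibrillin-1 to which fibulins bind, was at 254, 111, 95.03, 104 and 109 CPM in GF replicates 1, 2, 4, 5 and 6 and from 35.1 to 88.9 CPM (median 65.0 CPM) in CONV-R libraries. Every GF library was above every CONV-R library, with a Log2FC of *Fbn1* of 1.09 and an adjusted p of 0.0132 by edgeR's quasi-likelihood test. Without GF replicate 1, far above the other GF libraries, the Log2FC of *Fbn1* was 0.72 and the adjusted p 0.0305. *Loxl3*, a lysyl oxidase family member that crosslinks collagen and elastin, was at 19.7 to 35.0 CPM in GF and 35.4 to 64.7 CPM in CONV-R libraries (Log2FC -0.66, adjusted p = 0.0321 by edgeR's quasi-likelihood test), and the call was lost in 5 of 11 fits without 1 library (CONV-R replicate 2 or 5, GF replicate 4, 5 or 6), with adjusted p up to 0.0761. Elastin itself (*Eln*) had a Log2FC of 0.43 with an adjusted p of 0.661 in that test.

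Of the 9 tested genes among the other matricellular genes, *Ctgf* and *Spp1* were called higher and *Thbs2* lower, with a median Log2FC of 0.23. *Ctgf*, the connective tissue growth factor CCN2, was at 396, 319, 130, 145 and 137 CPM in GF replicates 1, 2, 4, 5 and 6 and from 10.1 to 42.1 CPM (median 30.0 CPM) in CONV-R libraries, and the Log2FC of 2.99 had an adjusted p of 6.1e-05 by edgeR's quasi-likelihood test. The groups were far apart, and GF replicates 1 and 2 stood above the other 3. *Cyr61* (CCN1), of the same family, had a Log2FC of 0.30 with an adjusted p of 0.611 in the same test. *Spp1*, osteopontin, which macrophages also make, was at 12.0 to 14.6 CPM in GF and 0 to 8.47 CPM in CONV-R libraries (Log2FC 2.496, adjusted p = 0.0161 by edgeR's quasi-likelihood test). Without CONV-R replicate 3, its highest CONV-R library, the Log2FC of *Spp1* was 3.38.

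*Thbs2* encodes thrombospondin 2, the close paralog of thrombospondin 1, and moved the other way from *Thbs1*. It was at 2.14 to 12.3 CPM in GF and 12.6 to 20.6 CPM in CONV-R libraries, a Log2FC of -1.21 with an SE of 0.31 and an adjusted p of 0.0232 by edgeR's quasi-likelihood test, which was 0.0518 without CONV-R replicate 5. Counts of *Thbs2* exceeded those of *Thbs1* in all 6 CONV-R libraries, with medians of 198.5 and 26.5 counts. Counts of *Thbs1* were the higher in GF replicates 1, 2 and 5, at 361, 223 and 161 against 33, 84 and 50. In GF replicates 4 and 6 the counts of *Thbs2* remained the higher, at 82 against 16 and 91 against 79. These raw counts are not corrected for gene length, so they do not rank the levels of the 2 genes. None of the 6 tested genes for enzymes that modify matrix proteins, among them *Ggcx*, which γ-carboxylates matrix Gla protein, was called by edgeR's quasi-likelihood test, none had an unadjusted p under 0.05, and DESeq2 and limma voom also called 0, with a median Log2FC of 0.16.

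**Figure D4:**
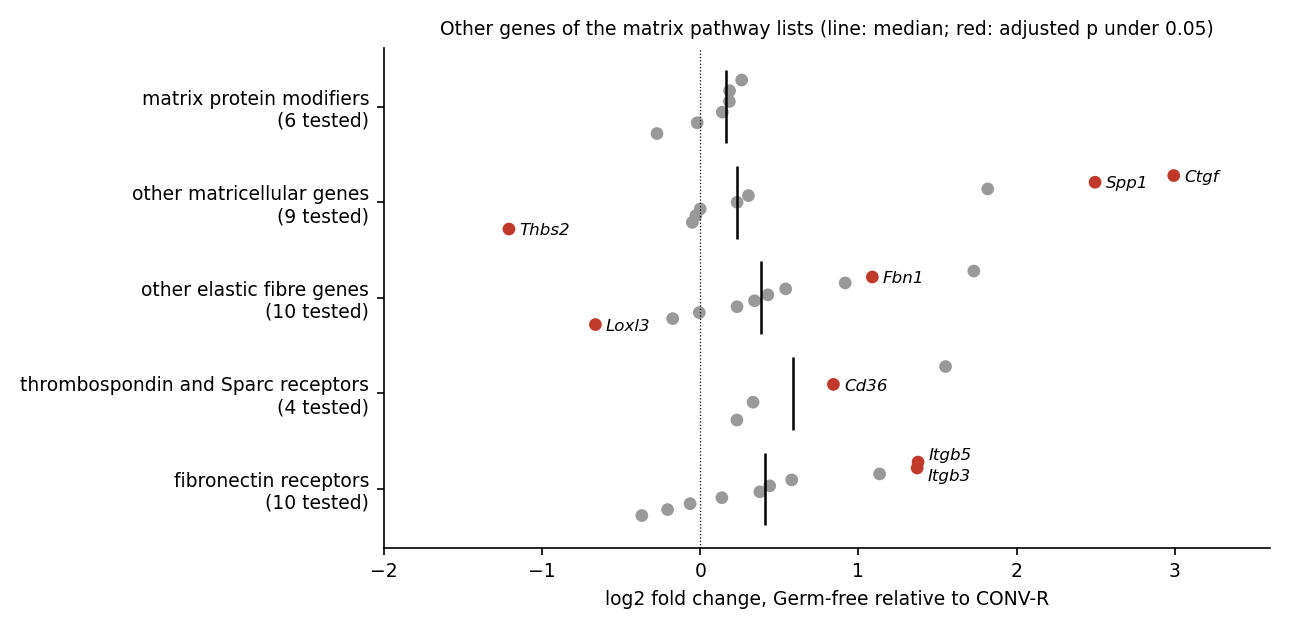
Log2FC of each tested gene of the 5 pathway lists, GF relative to CONV-R, with the list median as a black line and called genes in red. *Ctgf* and *Spp1* lie farthest to the right at 2.99 and 2.496, and *Thbs2* lies farthest to the left at -1.21.

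Transcripts of other liver cells were present beside these genes. The summed level of 15 stellate cell and fibroblast markers was 111 to 276 CPM in CONV-R and 211 to 278 CPM in GF libraries (adjusted p = 0.0952, exact permutation test, two-sided, over 8 lists). Most of that sum was *Hgf*, which ECs also express, with means of 171 CPM in CONV-R and 235 CPM in GF libraries. The mean was higher in GF mice for 11 of the 15 markers and lower for 4. *Rgs5* was at 11.1 and 9.79 CPM, *Lrat* at 4.92 and 1.89 CPM, *Col14a1* at 4.74 and 3.09 CPM, *Dcn* at 0.969 and 1.39 CPM and *Reln* at 0.711 and 1.69 CPM. Of the 15 markers, 9 had means under 1 CPM over all libraries, among them *Col1a1* at 0.0357 and 0.375 CPM and *Pdgfrb* at 0.0522 and 0.4999 CPM. None of the 15 was called by edgeR's quasi-likelihood test, in which 5 of them were tested. The sum of the mesothelial markers was 5.05 to 17.45 CPM in CONV-R and 9.39 to 25.7 CPM in GF libraries (adjusted p = 0.0952, exact permutation test). Most of it was *Gpm6a* (means of 8.99 CPM in CONV-R and 14.0 CPM in GF libraries) and *Krt19* (0.593 and 4.52 CPM), neither of them called. The other 3, *Msln*, *Upk3b* and *Wt1*, had means under 1 CPM. The Kupffer cell sum was 2.97-fold higher in GF mice and the lymphocyte sum was 0.440-fold (adjusted p = 0.0346 for both, exact permutation test). Of the 10 Kupffer cell genes, 7 were called higher, *Adgre1* and *Csf1r* among them, where 4.80% of all tested genes were. Without GF replicate 6 the Kupffer cell ratio was 1.97, and both sums had an adjusted p above 0.05 whenever 1 library was left out. An alternative chosen after the data were seen left out GF replicates 4 and 6. *Fn1*, *Sparcl1*, *Thbs1*, *Fbln2* and *Fbln5* were called higher in it as before, where 2.91% of all tested genes were. *Mgp* was not called, at a Log2FC of 2.11 with 3 GF libraries left. The part of Kupffer cell or mesothelial RNA in the differences of *Fn1*, *Sparcl1*, *Thbs1*, *Mgp*, *Fbln2*, *Fbln5*, *Itgb5* and *Spp1* was not tested.

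**Figure D5:**
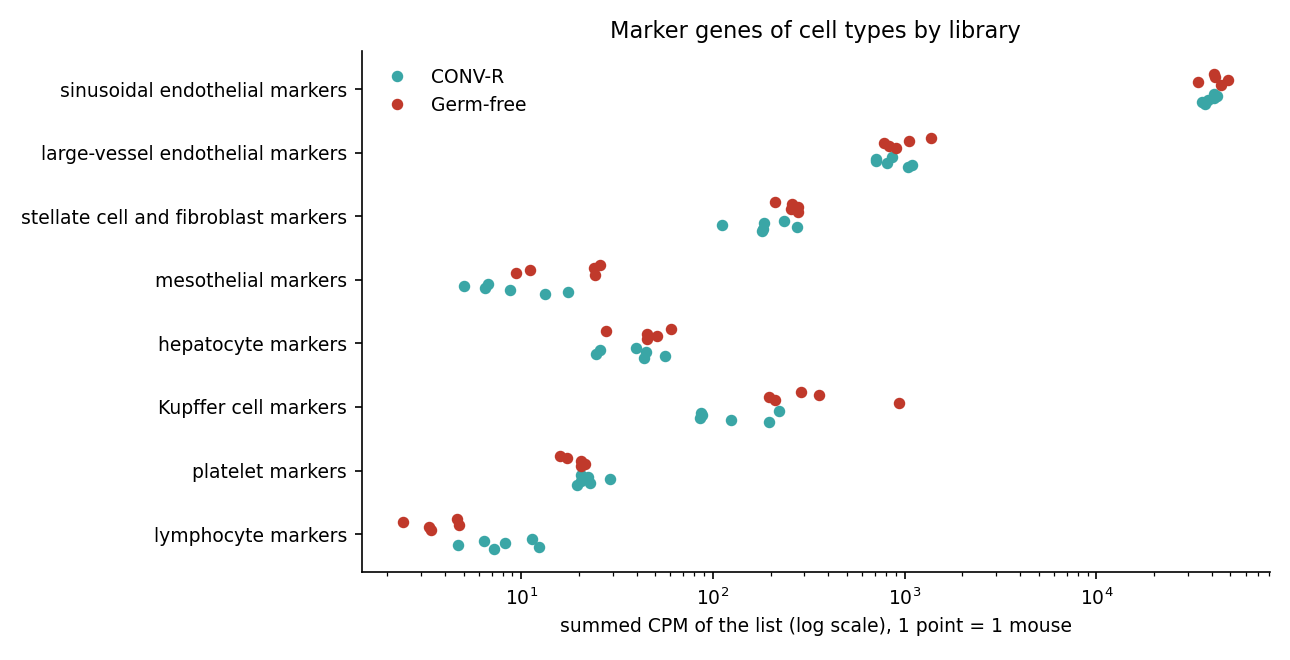
Summed CPM (log axis) of the marker genes of 8 cell types in each library, 1 point per mouse. Sinusoidal endothelial markers lie above 33767 CPM in all libraries, and the Kupffer cell sum of GF replicate 6 (931 CPM) lies to the right of all others.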

How the data were processed

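RNA of sorted liver ECs from 6 CONV-R and 5 GF mice was amplified and sequenced, with 1 library per mouse. The authors trimmed reads with Trim Galore, used STAR to map them to GRCm38, counted reads per gene with featureCounts and set aside a further GF library for few mapped reads. They deposited raw counts and normalized log2 values. The strand setting is not given in the sources used here. Positions and exon lengths came from GENCODE M21 (29146 of 29307 listed genes matched), and promoter windows from RefSeq (6 of the 10 genes matched). Protein sequences were not analysed here.

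Raw counts were tested with edgeR 4.0.16 (filterByExpr, TMM, quasi-likelihood test, no covariate). On simulated data for this comparison (13023 genes) it recovered 72.8% of genes changed by 1 and 94.8% of genes changed by 2 on the log2 scale, with 2.91% false calls. Alternatives were DESeq2 1.42.0, limma 3.58.1 on the counts and on the deposited log2 values, other size factors and filters, robust dispersion, thinning, a replicate block and leaving out each library. Marker sums were compared by an exact permutation test over 462 splits, with a smallest p of 0.00216. The 10 genes and all lists were chosen with earlier results of these data known. All 10 genes and, of each pathway list, up to 4 called genes in each direction were named. *Itga5*, *Itgb1*, *Stab1*, *Eln*, *Cyr61* and *Ggcx* were named after their values were seen.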

Additional observations from a re-analysis of the deposited data

Results flagged for a closer look

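Of 52 groups of 4 to 10 values examined for a sample far from the others by Dixon's criterion, 7 were marked, where chance marks about 1 in 20 groups. *Efemp1* was at 2.441 CPM in GF replicate 6, against 0.286 to 0.869 CPM in the other GF libraries. *Itgb3* was at 19.28 CPM in CONV-R replicate 3, against 50.0 to 60.4 CPM in the other CONV-R libraries. *Itgb5* was at 10.04 CPM in GF replicate 6, against 4.86 to 5.98 CPM. *Fbn1* was at 253.6 CPM in GF replicate 1, against 95.03 to 111 CPM. *Spp1* was at 8.471 CPM in CONV-R replicate 3, against 0 to 2.33 CPM. The Kupffer cell marker sum was 930.7 CPM in GF replicate 6, against 197 to 357 CPM, and the platelet marker sum was 28.97 CPM in CONV-R replicate 3, against 19.5 to 22.8 CPM.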

How the results depend on the processing

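Across 21 alternatives, 4 or 5 of the genes other than *Mgp* were called higher, where 2.86% to 5.98% of all tested genes were. *Fn1*, *Sparcl1* and *Fbln2* were called in each. *Thbs1* was tested in 20 of them and missed the threshold under limma voom only, and *Mgp* was tested in 19 and missed it in 7. With at least 10 counts required in every library, *Thbs1* and *Mgp* left the test. Leaving out 1 library gave 0 or 1 of the members called lower, where 206 to 481 of all tested genes were. The 1 was *Emilin1* without GF replicate 6, where 209 of 13131 tested genes were called lower. The Log2FC of *Ecm1* ran from -0.1883 to 0.058 without 1 library and changed sign without CONV-R replicate 1 (0.0487), GF replicate 2 (0.0197) or GF replicate 5 (0.058), and that of *Sparc* without GF replicates 4 and 6 (-0.0652), none of them called. The Kupffer cell ratio ran from 1.97 to 3.42 and the lymphocyte ratio from 0.405 to 0.487 without 1 library, and their adjusted p was above 0.05 in all 11 such cases (exact permutation test), where fewer splits exist. Of the pathway genes, 4 to 10 were called higher and 0 to 2 lower across 20 alternatives. The 10 came without GF replicate 5, where 779 of 13094 tested genes were called higher. The 0 came without CONV-R replicate 5, where 206 of 12737 tested genes were called lower. Over all genes, edgeR called 965 of 12905, DESeq2 1527 of 15540 and edgeR without 1 library 622 to 1260. With a replicate block 5 genes other than *Mgp* were called higher, where 5.27% of all tested genes were, and 0 lower, *Mgp* was called too, and 8 of 39 tested pathway genes were called (*Itgb3*, at an adjusted p of 0.0507, not among them), with 1096 of 12905 genes called overall. Deviations of same-numbered libraries correlated from -0.0428 to 0.252, so the shared numbers were not taken as pairs. On the deposited log2 values the Log2FC was lower for *Fn1* (1.95), *Thbs1* (1.96) and *Mgp* (1.30), all called, and for *Spp1* it was higher under limma voom (3.83) and with the block (3.56); the cause was not tested. *Mgp* had 30 counts and *Efemp1* 38 counts over all CONV-R libraries, which limits the precision of both.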
